A study of Homo sapiens with 10 samples.

Results

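The response of cells labelled as the rhabdomyosarcoma line RD to knockdown of NRAS was compared, gene by gene, with their response to an inhibitor of ERK, the last kinase of the pathway through which NRAS signals. For each gene, the inhibitor response (SCH772984 minus DMSO) was subtracted from the siRNA response (mean of both NRAS siRNAs minus nonspecific siRNA) on the log2 scale. A positive difference means that the gene stood higher, relative to its own control, with the siRNAs than with the inhibitor, and a negative difference means that it stood lower. All 23228 genes of the count table entered the comparison, without selection by their values, and 14761 passed the filter on low counts and were tested. RD is an established human rhabdomyosarcoma line, known to carry an activating NRAS mutation, and the cells were grown in serum-containing RPMI medium. Bulk mRNA of 10 libraries was sequenced, 2 from each of 5 groups. In the siRNA arm, cells were transfected with 10 nM of nonspecific siRNA, NRAS siRNA 1 or NRAS siRNA 2 and harvested after 48 h. In the inhibitor arm, cells received DMSO, the vehicle, or 300 nM of SCH772984, a kinase inhibitor that binds ERK1 and ERK2, and were harvested after 24 h. The arms share no library. They differ in the agent, in transfection, in the control and in the harvest time, and the parts of these in any difference cannot be told apart. All libraries came from the 1 cell line. The labels call the libraries of a group duplicates without saying whether they came from separate cultures, so a p-value here speaks of the variation among these 10 libraries, and that variation may be technical.

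NRAS is a small GTPase that in its active form starts a cascade of the kinases RAF, MEK and ERK. ERK then phosphorylates cytoplasmic and nuclear proteins, and its activity is read out by a set of induced genes that include transcription factors of the ETS, EGR and AP-1 families and feedback inhibitors such as the Sprouty proteins and the dual-specificity phosphatases. RAS proteins also act through other effectors, and ERK can be activated through the other RAS proteins of a cell, so knockdown of 1 RAS gene and inhibition of ERK need not have the same effect on RNA levels.

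The 10 libraries held between 23224063 and 30768970 reads assigned to genes, and log2 values of the libraries within a group correlated across genes with Pearson's r of 0.990 to 0.993. Counts of 3 or fewer in a library, 0.0975 to 0.129 CPM (counts scaled by library size), were taken as the floor of detection. Of 14 muscle and rhabdomyosarcoma markers, NCAM1 (2295 to 3222 counts per library), MEF2C (781 to 1374), DES (520 to 928), FGFR4 (321 to 592) and PAX3 (258 to 393) were detected in every library. The defining myogenic factors were at or near 0 in all groups: MYF5 had no count, MYOG 0 to 3, MYOD1 0 to 5 and PAX7 1 to 6 counts per library. Rhabdomyosarcoma is commonly defined by MYOD1 and MYOG, so these counts go against the label, and the identity of the line was not tested further. The summed level of the 14 markers was 218 to 251 CPM with SCH772984 and 169 to 206 CPM in the other 4 groups, and the summed levels of 6 epithelial and 8 blood and endothelial markers were at most 3.66 CPM in any library. In bulk RNA, fewer cells of a type and less RNA per cell cannot be told apart.

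The responses differed for 1078 of the 14761 tested genes, 7.30% of them, at an adjusted p under 0.05 (edgeR's quasi-likelihood test of the contrast, Benjamini-Hochberg adjustment over all tested genes). Such genes are named called below. The difference was positive for 403 (2.73%) and negative for 675 (4.57%), and it reached at least 1 on the log2 scale for 152 positive (1.03%) and 350 negative (2.37%) genes. The difference had the same sign with each siRNA taken alone for 1075 of the 1078 genes, and 544 were called with each alone. Between the siRNAs themselves, 63 genes (0.427%) differed. The median difference over all tested genes was 0.02. Counts of called genes in the lists below stand beside the shares of 2.73% higher and 4.57% lower.

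Most differences came with a larger inhibitor response. The siRNA response was called for 1174 genes (7.95%) and the inhibitor response for 4128 (28.0%), and in 916 of the 1078 genes with a called difference the inhibitor response was the larger in size (in 9736 of all 14761). The 1078 genes fell into classes by the calls of the separate responses. In 747 the inhibitor response alone was called (261 with a positive and 486 with a negative difference). In 138 both responses were called in the same direction with the greater response to the inhibitor (76 positive, 62 negative). In 116 the siRNA response alone was called (39 positive, 77 negative), in 36 both were called in opposite directions (17 positive, 19 negative), and in 40 neither was (10 positive, 30 negative). The remaining gene, CDCA4, was called lower in both arms with the greater response in the siRNA arm.

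A called response in a single arm did not mark a called difference in most genes. Of the genes with a called inhibitor response and no called siRNA response, 2687 had no called difference against 747 that had 1, and of those with a called siRNA response only, 364 had none against 116. Among the 694 genes called in both arms, 658 moved in the same direction (268 up and 390 down), and 139 of these had a called difference. Across all tested genes the responses correlated with Pearson's r of 0.541 and Spearman's rho of 0.451, given as a description across genes that were measured in the same libraries. The plot of both responses shows this as a cloud of points spread more widely along the inhibitor axis than along the siRNA axis.

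**Figure D1:**
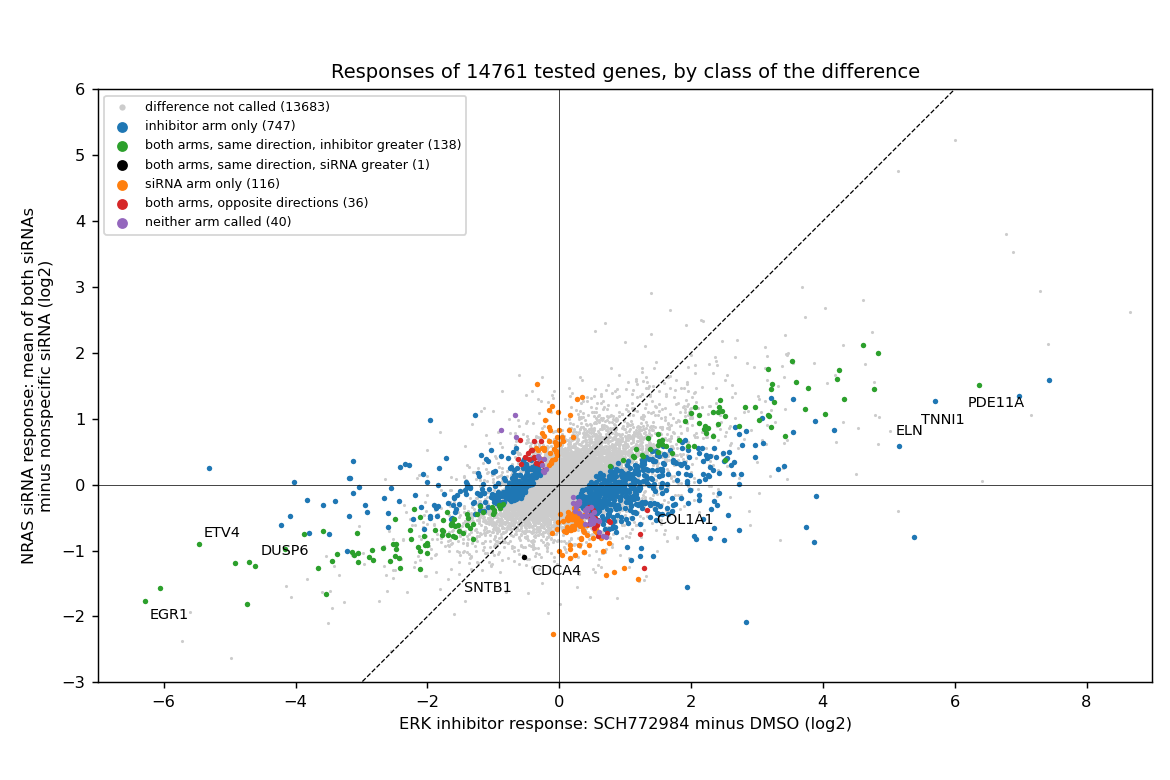
Inhibitor response (horizontal axis, log2) against siRNA response (vertical axis, log2) of the 14761 tested genes, 1 point per gene, coloured by the class of the difference, with the number of genes in each class in the key. The dashed line marks equal responses: ETV4 and EGR1 lie far left of it and PDE11A and ELN far right, with siRNA responses closer to 0, whereas NRAS lies below it near an inhibitor response of 0.

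The share of G and C bases in a gene's transcript moved with the difference. Among the 14030 tested genes with a transcript of the same symbol (95%), the Spearman correlation of GC content with the difference was -0.381, with the siRNA response -0.273 and with the inhibitor response 0.194, as a description across genes. The 2352 genes with over 60% GC had a median difference of -0.47, and 15.8% of them were called lower and 0.298% higher. Median GC content was 61.1% for the genes called lower and 46.8% for those called higher, against a median of 50% over all tested genes. In the libraries themselves, genes over 60% GC stood at a median of 0.40 and 0.14 (log2, relative to the mean of all libraries) with SCH772984 and between -0.22 and 0.13 in the other 8 libraries.

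When a smooth trend with GC content was removed from each library, an alternative chosen after the data had been seen, the difference was called for 881 genes (5.97%), 416 higher (2.82%) and 465 lower (3.15%), so that the share of higher calls went from 37.4% to 47.2%. Of the 1078 genes, 635 remained called in the same direction, 283 of the 403 higher and 352 of the 675 lower ones. The loss fell unevenly on the classes. Lower genes called in the siRNA arm only (median GC 63.1%) were still called in 25 of 77, those called in neither arm in 6 of 30, and those called in both arms with the greater inhibitor response in 55 of 62. Below, a call that was lost under this correction is marked as such. The plot by GC content gives both sets of values.

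**Figure D2:**
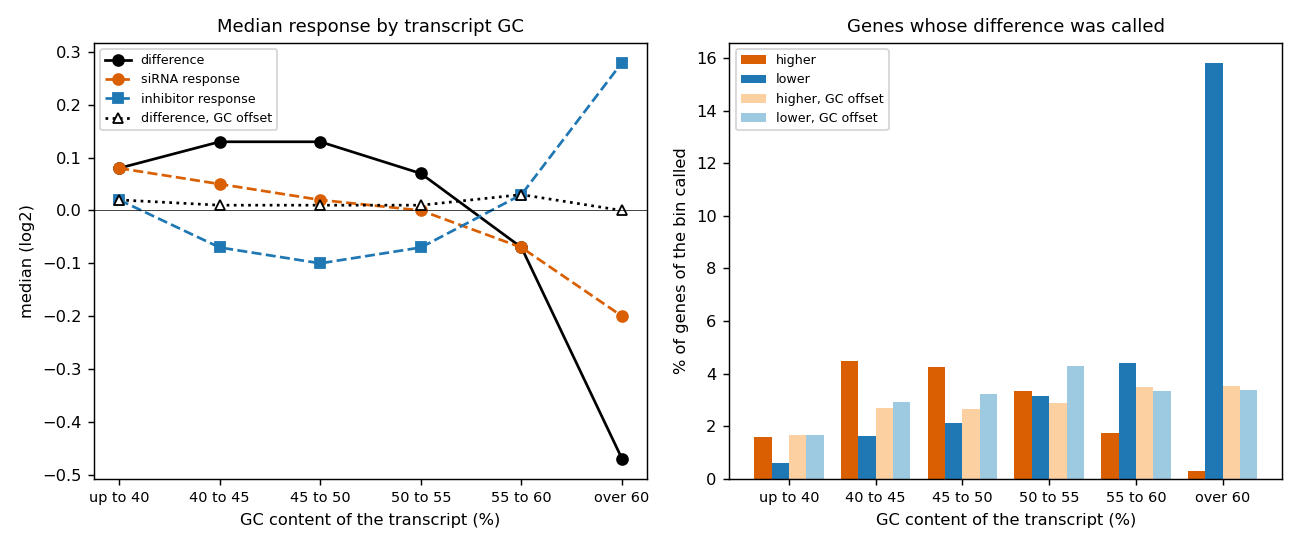
Left, median difference, siRNA response and inhibitor response (log2) of genes in 6 ranges of transcript GC content, with the difference after removal of the GC trend (open triangles). Right, percentage of the genes of each range called higher or lower, in dark colours as measured and in pale colours after removal of the trend: the excess of lower calls above 60% GC (15.8%) is gone in the pale bars.

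NRAS itself, the targeted gene, separated the arms in the direction of the labels. It stood at 220 and 272 CPM with nonspecific siRNA, at 52.4 and 52.2 with siRNA 1, at 51.0 and 48.0 with siRNA 2, at 269 and 282 with DMSO and at 235 and 279 with SCH772984. All 4 NRAS siRNA libraries were lower than all 6 others, which overlapped. The siRNA response was -2.27, the inhibitor response -0.10 and the difference -2.17 (SE 0.15, adjusted p = 0.000122). Of the 24 tested genes of the kinase cascade, NRAS among them, 2 were called higher and 3 lower, with a median of 0.03. These were 8.33% and 12.5% of the list, against 2.73% and 4.57% of all tested genes. The kinase genes RPS6KA1 and RPS6KA3 were the higher ones, and NRAS, MAP2K2 and RPS6KA2 the lower ones. MAP2K2, which encodes MEK2, had a difference of -0.73 (SE 0.15, adjusted p = 0.0225) that was lost in 4 of 10 fits that each left out 1 library (-0.88 to -0.56) and after the GC correction (-0.24). The kinases RSK1 and RSK3, encoded by RPS6KA1 and RPS6KA2, were called in opposite directions, RPS6KA1 at 0.60 (adjusted p = 0.0455) and RPS6KA2 at -0.68 (adjusted p = 0.0263), though in the fits that left out a library RPS6KA1 lost its call in 10 of 10 (0.50 to 0.69) and RPS6KA2 in 6 (-0.77 to -0.57).

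Among the genes that ERK activity is known to induce, those with a called difference fell further with the inhibitor than with knockdown. Of 29 tested members of this list, 12 were called higher (2.73% of all tested genes were) and none lower, the median difference was 1.01, and 24 of the 29 differences were positive. This list, like the others, was chosen with earlier results of these data known. Its counts beside those of all tested genes are a description and not a test. After the GC correction 15 were higher and none lower, and without any 1 library between 10 and 14 were higher, with 2 lower without NRAS siRNA 2 replicate 2. With a replicate block, 18 members were higher and 2 lower. The median response of the list was -0.75 with the siRNAs and -1.79 with the inhibitor. All 15 called siRNA responses of the list were falls, as were 24 of its 25 called inhibitor responses. HBEGF, which encodes an EGF receptor ligand, was the exception, with a difference of -1.18 that was not called (adjusted p = 0.0775).

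Among the ETS factors, ETV4 stood at 284 and 246 CPM with nonspecific siRNA, at 129 and 156 with siRNA 1, at 117 and 165 with siRNA 2, at 259 and 269 with DMSO and at 7.34 and 4.61 with SCH772984. The control groups overlapped, the 4 knockdown libraries lay between 117 and 165, and the inhibitor libraries lay far below. The siRNA response of ETV4 was -0.90 and its inhibitor response -5.47, and the difference was 4.57 (SE 0.29, adjusted p = 7.81e-05). ETV5, a factor of the same subfamily, stood at 98.7 and 80.4, 78.9 and 74.5, 71.9 and 77.9, 101 and 87.1, and 7.72 and 5.53 CPM in the same order of groups. Its siRNA response of -0.24 was not called (adjusted p = 0.261), its inhibitor response was -3.83, and the difference was 3.59 (SE 0.22, adjusted p = 7.81e-05). ETV1, the third of the subfamily, followed the same pattern at a smaller size, with responses of -0.05 and -1.36 and a difference of 1.30 (SE 0.15, adjusted p = 0.00143).

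EGR1, a zinc finger factor made within minutes of ERK activation, showed a larger fall than ETV4. It stood at 81.2 and 44.2 CPM with nonspecific siRNA, at 17.9 and 16.7 with siRNA 1, at 20.4 and 19.1 with siRNA 2, at 57.5 and 36.4 with DMSO and at 0.647 and 0.546 with SCH772984. The groups formed 3 levels without overlap: controls, knockdown libraries and, lowest, inhibitor libraries. The difference was 4.53 (SE 0.47, adjusted p = 0.000813), from a siRNA response of -1.76 and an inhibitor response of -6.29. The promoter of EGR1 is shown because ERK is known to act on it through the serum response factor, which binds the CArG box, and its ETS-family partners. The sequence gives the 250 bases before the annotated start (RefSeq, GRCh38.p14, chr5:138465229-138465478, plus strand, 5′ to 3′), with matches to the CArG box on either strand in capitals:
EGR1 promoter: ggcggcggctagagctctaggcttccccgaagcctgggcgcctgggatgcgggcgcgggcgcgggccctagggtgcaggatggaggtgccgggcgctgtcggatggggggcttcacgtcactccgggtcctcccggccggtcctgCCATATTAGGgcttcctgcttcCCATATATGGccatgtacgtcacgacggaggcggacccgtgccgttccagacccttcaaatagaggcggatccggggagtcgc
It holds 2 such matches, which do not overlap. Of all 35116 RefSeq promoter windows, which run from 250 bases before to 50 bases after the start, 1.29% hold at least 1 match. Of the ERK output list, 19 genes had a window and EGR1 alone held a match, so the letters of this motif are not shared by the list in these windows.

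Feedback inhibitors of the pathway were among the called genes. SPRY4, a Sprouty protein that restrains RAS and RAF activation, stood at 292 and 249 CPM with nonspecific siRNA, 114 and 126 with siRNA 1, 107 and 126 with siRNA 2, 326 and 300 with DMSO and 12.3 and 8.43 with SCH772984. DUSP6, the cytoplasmic phosphatase of ERK, stood at 272 and 206, 96.7 and 99.8, 101 and 108, 292 and 265, and 13.5 and 9.28 CPM in the same order. In both genes the knockdown libraries lay between the controls and the inhibitor libraries without overlap. The difference was 3.73 (SE 0.22, adjusted p = 7.81e-05) for SPRY4 and 3.38 (SE 0.23, adjusted p = 0.000115) for DUSP6. SPRY2 had a difference of 3.19 (SE 0.26, adjusted p = 0.000201) and SPRY1 1.58 (adjusted p = 0.00903). The Sprouty-related inhibitors SPRED1 and SPRED2 had uncalled siRNA responses of -0.16 and -0.18 and differences of 0.77 (adjusted p = 0.00979) and 0.85 (adjusted p = 0.0100). All 6 kept their calls without any 1 library and after the GC correction. The remaining called members of the list were PHLDA1, a pleckstrin-like protein (1.09, adjusted p = 0.0164), and MAFF, a small MAF factor (2.21, adjusted p = 0.0365). PHLDA1 was not called without nonspecific siRNA replicate 1, and MAFF was lost in 6 of the 10 fits (1.87 to 2.45).

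DUSP4, DUSP5 and the AP-1 genes FOS and FOSL1 did not pass the test. DUSP4, a nuclear phosphatase of ERK, stood at 14.7 and 17.2, 5.63 and 6.67, 5.81 and 8.47, 13.2 and 14.8, and 3.16 and 2.12 CPM in the order used above, and its difference of 1.15 had an adjusted p of 0.0502 (95% interval of this single gene 0.47 to 1.83). It was called without NRAS siRNA 2 replicate 1. DUSP5 had a difference of 1.01 (adjusted p = 0.168) and FOS, an AP-1 subunit, 0.77 (adjusted p = 0.139). FOSL1, another AP-1 subunit, had a difference of 2.19 with an SE of 0.85 (adjusted p = 0.151): its replicates lay far apart, at 68.3 and 119 CPM with nonspecific siRNA and 19.6 and 66.1 with siRNA 1, and replicate 2 was the higher in every group. CCND1, which encodes cyclin D1, had a difference of 0.97 (adjusted p = 0.0931) that was called without NRAS siRNA 1 replicate 1, without NRAS siRNA 2 replicate 1 and after the GC correction, at 1.49 (adjusted p = 0.0269). FOS was called after the GC correction too, at 1.03 (adjusted p = 0.0355). MYC had a difference of -0.50 (adjusted p = 0.336, 95% interval -1.17 to 0.16). None of these missed calls shows like responses. They come from the fit without a replicate block, and with that block 18 members of the list were higher and 2 lower. The plot of the ERK output list gives both responses for each member.

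**Figure D3:**
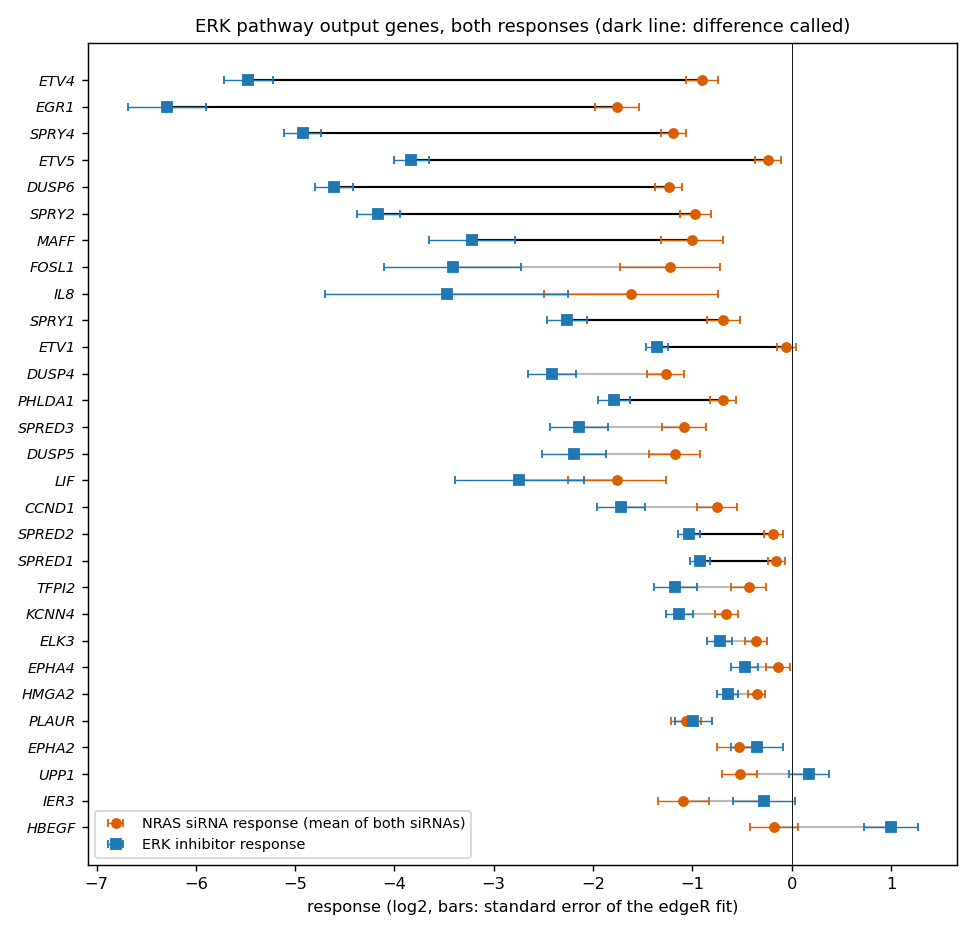
siRNA response (circles) and inhibitor response (squares) in log2 for the 29 tested genes of the ERK output list, with bars for the standard error of the edgeR fit, ordered by the difference. A dark line joins the responses of the 12 genes whose difference was called: at the top, ETV4, EGR1, SPRY4, ETV5 and DUSP6 have inhibitor responses from -3.83 to -6.29 and siRNA responses from -0.24 to -1.76.

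Immediate-early genes outside that list did not share its pattern. Of 23 tested, 1 was called higher and 3 lower, and the median difference was -0.01. These were 4.35% and 13.0% of the list, against 2.73% and 4.57% of all tested genes. NR4A2, an orphan nuclear receptor, stood at 7.16 and 5.28 CPM with nonspecific siRNA, 2.81 and 2.63 with siRNA 1, 2.28 and 2.63 with siRNA 2, 8.71 and 6.60 with DMSO and 1.45 and 1.40 with SCH772984. It was thus lower in both arms, most with the inhibitor, with a difference of 1.16 (SE 0.30, adjusted p = 0.0451) that lost its call in 9 of 10 fits without 1 library (0.95 to 1.39) and after the GC correction (adjusted p = 0.0562). The matricellular protein CTGF had a difference of -1.29 (adjusted p = 0.0289): its inhibitor response was 1.12 and its siRNA response of -0.17 was not called, and the call was lost in 5 of the 10 fits (-1.50 to -1.05). JUNB, at -1.40 (adjusted p = 0.0386), fell by 1.02 with the siRNAs and had an uncalled inhibitor response of 0.38, and was lost in 6 of the 10 fits (-1.65 to -1.10) and after the GC correction (adjusted p = 0.170). The flow-responsive factor KLF2 had a difference of -1.55 (adjusted p = 0.0109), which was -2.24 with siRNA 1 and -0.86 with siRNA 2, and these differed (adjusted p = 0.0181). It too was not called after the GC correction (-0.83, adjusted p = 0.193).

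Of 35 tested genes of mitosis, 27 had a called inhibitor response and 3 a called siRNA response, all of them falls. Of these 35, 13 were called higher in the difference and none lower, 34 of 35 differences were positive, and the median was 0.44, with a median siRNA response of -0.11 and a median inhibitor response of -0.58. The 13 were 37.1% of the list, against 2.73% of all tested genes. The proliferation antigen MKI67 stood at 569 and 657 CPM with nonspecific siRNA, 566 and 612 with siRNA 1, 555 and 528 with siRNA 2, 822 and 776 with DMSO and 473 and 501 with SCH772984. The siRNA 1 libraries overlapped nonspecific siRNA and both siRNA 2 libraries lay just below it, whereas both inhibitor libraries lay below both DMSO libraries, and the difference was 0.60 (SE 0.12, adjusted p = 0.0209). BUB1, a kinase of the spindle checkpoint, had a difference of 0.66 (SE 0.11, adjusted p = 0.00866), KIF2C, a kinesin that removes tubulin at centromeres, 0.70 (adjusted p = 0.0135), and FOXM1, a factor that drives G2 and M genes, 0.69 (adjusted p = 0.0186). The count of 13 was the same after the GC correction, but it was 1 without SCH772984 replicate 1, 2 without DMSO replicate 2 and 6 to 9 without any other 1 library. DNA replication genes had a smaller median of 0.29 (33 of 40 positive). PRIM1, a subunit of the primase, at 0.69 (adjusted p = 0.0148) and RFC5, of the clamp loader, at 0.46 (adjusted p = 0.0469) were called higher. These were 5.0% of the list, against 2.73% of all tested genes, and neither was called after the GC correction. PRIM1 was not called without DMSO replicate 2 or without SCH772984 replicate 1, and RFC5 in none of the fits without 1 library (0.41 to 0.50).

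Entry genes of G1 gave 1 call in each direction among 20 (5.0% each, against 2.73% higher and 4.57% lower of all tested genes). CDKN2B, which encodes the CDK inhibitor p15, stood at 27.6 and 27.1 CPM with nonspecific siRNA, 14.3 and 16.8 with siRNA 1, 11.1 and 12.5 with siRNA 2, 19.2 and 18.3 with DMSO and 22.4 and 26.3 with SCH772984. It fell with knockdown (-1.01) and had an uncalled inhibitor response of 0.38, and the difference of -1.39 (SE 0.18, adjusted p = 0.00208) was called without any 1 library and after the GC correction. E2F2, a factor of S-phase genes, had a difference of 0.91 (adjusted p = 0.0258), lost in 6 of 10 fits without 1 library (0.79 to 1.04). In edgeR's test ribosome biogenesis genes gave no call in 30 (median 0.18), with 3 at an unadjusted p under 0.05, and oxidative phosphorylation genes none in 30 (median 0.13), with 7 such. DESeq2 and limma-voom called 0 in both lists. Of 30 ribosomal protein genes 1 was lower (3.33%, against 4.57% of all tested genes).

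Contractile genes of muscle lay on the other side. Of 38 sarcomere genes in the table only 19 passed the filter, and of these 5 were called lower and none higher, with a median of -0.88, a median siRNA response of -0.08 and a median inhibitor response of 2.04. The 5 were 26.3% of the 19, against 4.57% of all tested genes, and the median was -0.51 after the GC correction. Genes that passed the filter through the inhibitor libraries alone had to differ, so the count describes these 19 and not the list. TNNI1, the slow troponin I, stood at 0.124 and 0.153 CPM with nonspecific siRNA, 0.422 and 0.216 with siRNA 1, 0.444 and 0.285 with siRNA 2, 0.264 and 0.152 with DMSO and 10.5 and 11.2 with SCH772984. It was below 0.5 CPM in 8 libraries and above 10 in both inhibitor libraries, with a difference of -4.43 (SE 0.77, adjusted p = 0.0109) that was not called without nonspecific siRNA replicate 2. TNNC1, the slow and cardiac troponin C, had a difference of -2.24 (SE 0.50, adjusted p = 0.0286) that lost its call in 4 of 10 fits without 1 library (-2.48 to -1.94). MYL4, a myosin light chain, had 5, 5, 2 and 2 counts over both libraries with nonspecific siRNA, siRNA 1, siRNA 2 and DMSO and 106 with SCH772984. MYOZ1, a Z-disc protein, had 6, 2, 1, 3 and 26 counts in the same order. No fold is given for these genes, because groups lay at or under 3 counts per library. After the GC correction 4 of the list were lower, and without any 1 library 1 to 4, with 1 without DMSO replicate 1, without DMSO replicate 2 and without nonspecific siRNA replicate 2, and 2 without SCH772984 replicate 2. It was 3 in the fits without each of 5 other libraries and 4 without NRAS siRNA 2 replicate 1.

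Smooth muscle genes were better detected and gave the same direction. Of 16 tested, 6 were called lower and none higher, 15 of 16 differences were negative, and the median was -0.93, with a median siRNA response of 0.19 and inhibitor response of 1.19. The 6 were 37.5% of the tested list, against 4.57% of all tested genes. TAGLN, an actin-binding protein, stood at 3.23 and 2.68 CPM with nonspecific siRNA, 4.26 and 4.25 with siRNA 1, 5.04 and 4.80 with siRNA 2, 6.38 and 6.45 with DMSO and 39.6 and 69.7 with SCH772984. Each NRAS siRNA library was above both nonspecific siRNA libraries, though the siRNA response of 0.63 was not called, and both inhibitor libraries were above all others. The difference was -2.46 (SE 0.33, adjusted p = 0.00306). ACTA2, smooth muscle actin, had a difference of -2.90 (SE 0.59, adjusted p = 0.0203), lost in 3 of 10 fits without 1 library (-3.37 to -2.26), CALD1, which encodes caldesmon, -1.16 (adjusted p = 0.0071), and MYL9, a regulatory light chain, -1.19 (adjusted p = 0.00209). After the GC correction 5 were lower, and without any 1 library 3 (without DMSO replicate 1) to 6. Of the 12 list members with a RefSeq promoter window, 5 (ACTG2, ACTN1, FLNA, MYLK and SMTN) hold a CArG box, against 1.59% of the 9985 tested genes with a window, which is given as a description of the letters. FLNA alone of these 5 had a called difference, and CALD1, which was called, had a window without a match.

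Genes of muscle identity gave a single call beside these. Of 13 tested genes of muscle identity, 1 was called lower (CDH15, at -2.75, adjusted p = 0.0409, lost in 7 of 10 fits without 1 library, -3.33 to -1.69, and after the GC correction) and none higher, with a median of -0.02. That call was 7.69% of the list, against 4.57% of all tested genes called lower. MYOD1, MYOG, MYF5 and PAX7 were at or near 0 in all groups, as given above. The part of the muscle marker level in the differences of the contractile genes was not tested.

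The plot of library values shows 15 genes of the groups described here, with TNNI1 and ELN as examples of genes that were high in the inhibitor libraries only.

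**Figure D4:**
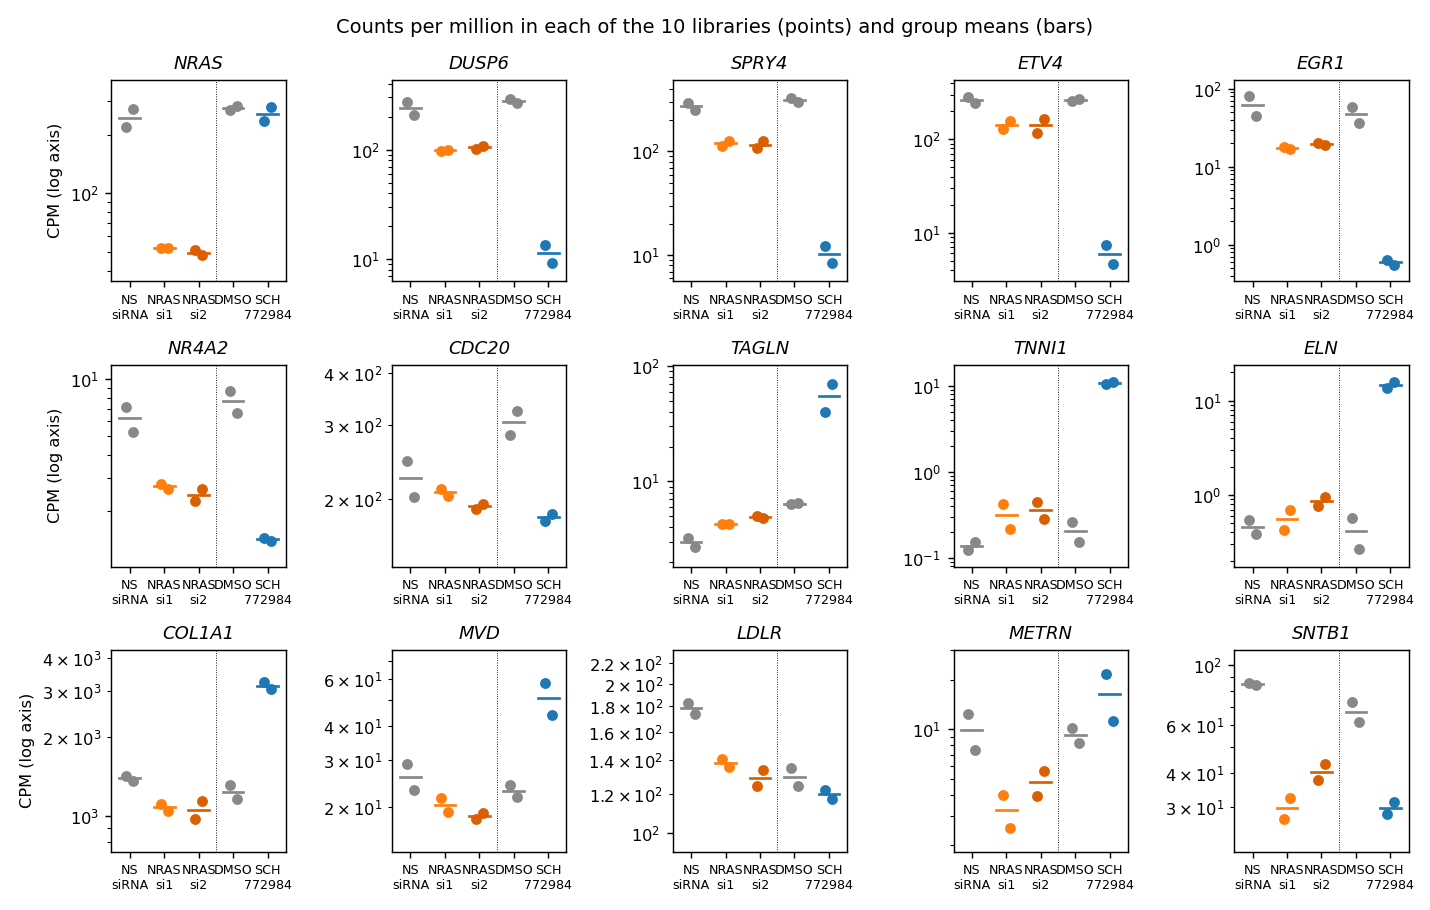
CPM (log axis, a separate scale for each gene) in the 10 libraries, as points, with a bar at each group mean, for 15 genes. The dotted line parts the siRNA arm (left) from the inhibitor arm (right): in DUSP6, SPRY4, ETV4 and EGR1 the knockdown libraries lie between controls and inhibitor, TNNI1 and ELN are high with SCH772984 only, and SNTB1 falls by about the same amount in both arms.

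Genes of the extracellular matrix gave more lower than higher calls. Of 27 collagen genes tested, 11 were called lower in the difference and 2 higher, with a median of -0.73 (median siRNA response -0.13, median inhibitor response 0.38). These were 40.7% and 7.41% of the list, against 4.57% and 2.73% of all tested genes. COL1A1, the chain of the main fibrillar collagen, stood at 1426 and 1367 CPM with nonspecific siRNA, 1112 and 1050 with siRNA 1, 973 and 1143 with siRNA 2, 1312 and 1168 with DMSO and 3231 and 3037 with SCH772984. The 4 knockdown libraries were all below their controls and the inhibitor libraries above all others. It was thus called in opposite directions, -0.38 with the siRNAs and 1.34 with the inhibitor, with a difference of -1.72 (SE 0.13, adjusted p = 0.000143).

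Of the 17 called inhibitor responses of collagens 4 were falls. COL14A1 stood at 156 and 137 CPM with nonspecific siRNA, 401 and 277 with siRNA 1, 565 and 405 with siRNA 2, 159 and 111 with DMSO and 1805 and 1880 with SCH772984. It rose without overlap in both arms, by 1.47 and 3.77, and the difference was -2.31 (SE 0.28, adjusted p = 0.00169). COL12A1, which associates with collagen fibrils as COL14A1 does, had a difference of -2.13 (SE 0.18, adjusted p = 0.000228) from an uncalled siRNA response of 0.41 and an inhibitor response of 2.54. COL16A1 (-2.05, adjusted p = 0.000143) and COL18A1, the source of endostatin (-2.06, adjusted p = 0.000537), had siRNA responses of 0.06 and -0.30 that were not called. All 5 collagens kept their calls without any 1 library and after the GC correction, under which 9 collagens were lower and 2 higher. Without any 1 library 7 to 13 were lower, with 7 without DMSO replicate 2.

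Elastic fibre and bone matrix genes gave some of the largest differences. ELN, which encodes elastin, stood at 0.538 and 0.383 CPM with nonspecific siRNA, 0.422 and 0.685 with siRNA 1, 0.761 and 0.961 with siRNA 2, 0.572 and 0.266 with DMSO and 13.7 and 15.7 with SCH772984. The 8 other libraries lay below 1 CPM, and the difference was -4.57 (SE 0.53, adjusted p = 0.00151). FBN1, fibrillin 1 of the microfibril, rose in both arms, by 0.59 and 1.95, with a difference of -1.36 (SE 0.16, adjusted p = 0.00151). Of 25 tested genes of fibronectin, elastic fibres and other matrix, 8 were called lower and 1 higher, with a median of -0.70. After the GC correction 7 were lower and 0 higher, with a median of -0.31. The uncorrected calls were 32.0% and 4.0% of the list, against 4.57% and 2.73% of all tested genes. The count of 8 was 3 without DMSO replicate 2, 4 without DMSO replicate 1 or nonspecific siRNA replicate 1, and 6 to 9 without any other library. THBS2, a matricellular thrombospondin, fell by 0.73 with the siRNAs and had an uncalled inhibitor response of 0.58, with a difference of -1.30 (adjusted p = 0.0305) that was lost in 5 of 10 fits without 1 library (-1.53 to -1.04).

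Of 20 genes of bone matrix and small leucine-rich proteoglycans 10 passed the filter, and 5 of these were called lower and 1 higher, with 2 lower without nonspecific siRNA replicate 1. Members that passed through the inhibitor libraries alone, as IBSP and DCN below, had to differ, so the count describes these 10 and not the list. LUM, a proteoglycan that regulates collagen fibrils, stood at 2.61 and 3.45, 3.84 and 3.03, 4.12 and 3.35, 2.64 and 1.78, and 17.9 and 26.0 CPM in the order of groups used above, with a difference of -3.08 (SE 0.36, adjusted p = 0.00143). IBSP, bone sialoprotein, had 4, 13, 16 and 6 counts over both libraries with nonspecific siRNA, siRNA 1, siRNA 2 and DMSO and 1212 with SCH772984, and DCN, decorin, had 6, 19, 17, 2 and 319 in the same order. For these no fold is given, because groups lay at or under 3 counts per library. SPP1, osteopontin, went the other way. It stood at 512 and 530 CPM with nonspecific siRNA, 265 and 376 with siRNA 1, 276 and 362 with siRNA 2, 699 and 696 with DMSO and 60.5 and 56.1 with SCH772984, falling in both arms, most with the inhibitor, with a difference of 2.88 (SE 0.22, adjusted p = 0.000149).

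Proteases that cut the matrix gave 2 calls in each direction among 25 (8.0% each, against 2.73% higher and 4.57% lower of all tested genes). MMP2, a gelatinase, had a difference of -0.74 (adjusted p = 0.0169) that was not called without DMSO replicate 2 or without SCH772984 replicate 1, and ADAM19, a membrane protease, -0.94 (SE 0.18, adjusted p = 0.0153). ADAM19 stood at 82.8 and 95.1 CPM with nonspecific siRNA, 53.6 and 65.0 with siRNA 1, 64.6 and 75.9 with siRNA 2, 41.5 and 46.7 with DMSO and 57.8 and 64.7 with SCH772984. Its control groups differed (1.01, adjusted p = 0.0239), the treated groups overlapped, and the call was lost without DMSO replicate 1. SERPINA3, a protease inhibitor of the acute phase, fell in both arms, with responses of -1.82 and -4.74, with a difference of 2.93 (adjusted p = 0.0339) that was lost in 5 of 10 fits without 1 library (2.49 to 3.26).

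Of 25 tested genes of cholesterol synthesis and uptake, 17 had a called inhibitor response, all of them rises, and 4 a called siRNA response, of which 1 was a fall. Of the 25, 7 were called lower in the difference and none higher (4.57% of all tested genes were lower), 24 of 25 differences were negative, and the median was -0.44 (median siRNA response 0.07, median inhibitor response 0.53). As with the other lists, the comparison with all tested genes is a description. MVD, mevalonate diphosphate decarboxylase, stood at 28.9 and 23.1 CPM with nonspecific siRNA, 21.7 and 19.2 with siRNA 1, 18.1 and 19.0 with siRNA 2, 24.2 and 21.9 with DMSO and 58.1 and 44.2 with SCH772984. All 4 knockdown libraries were below their controls, but the siRNA response of -0.41 was not called (adjusted p = 0.0890), and both inhibitor libraries were above all others. Its difference was -1.57 (SE 0.21, adjusted p = 0.0028) and -1.01 after the GC correction (adjusted p = 0.00235). LSS, lanosterol synthase, had a difference of -0.64 (SE 0.11, adjusted p = 0.00979), and HMGCS1, which makes the precursor of mevalonate, rose in both arms, by 0.42 and 1.14, with a difference of -0.72 (adjusted p = 0.0248). LSS was not called without SCH772984 replicate 1, and HMGCS1 was lost in 5 of the 10 fits (-0.85 to -0.61). After the GC correction 8 members were lower. Without SCH772984 replicate 1 and without replicate 2 of that group the count was 2, without either DMSO replicate or nonspecific siRNA replicate 1 it was 3, without NRAS siRNA 1 replicate 2 it was 4, and it was 5 to 7 without any other library.

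The promoter of MVD is shown as that of the list's member with the largest difference. Sterol-regulated promoters are known to bind the factor NF-Y at CCAAT beside the site of SREBP, and matches to CCAAT on either strand are in capitals (250 bases before the start, RefSeq, GRCh38.p14, chr16:88663092-88663341, minus strand, 5′ to 3′):
MVD promoter: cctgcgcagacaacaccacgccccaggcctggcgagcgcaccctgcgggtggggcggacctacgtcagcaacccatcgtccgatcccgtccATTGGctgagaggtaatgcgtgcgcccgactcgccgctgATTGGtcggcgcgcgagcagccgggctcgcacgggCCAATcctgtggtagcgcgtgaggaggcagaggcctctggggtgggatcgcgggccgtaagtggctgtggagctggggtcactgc
It holds 3 matches. Of the 16 list members with a window of 300 bases, 14 hold at least 1 CCAAT (87.5%), against 34.6% of all 35116 windows and 43.0% of the 9985 tested genes with a window. CCAAT was as common in the mitosis list, in 24 of 30 members (80.0%), whose differences had the other sign.

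Fatty acid genes gave 3 lower calls and no higher one among 15, but none without DMSO replicate 2 and 1 without SCH772984 replicate 1 or nonspecific siRNA replicate 1. The 3 lower calls were 20.0% of the list, against 4.57% of all tested genes, and 4 members were lower after the GC correction. FASN, fatty acid synthase, stood at 1142 and 904 CPM with nonspecific siRNA, 608 and 543 with siRNA 1, 446 and 579 with siRNA 2, 1080 and 903 with DMSO and 1420 and 1022 with SCH772984. It fell with knockdown (-0.91) without overlap, the inhibitor response of 0.30 was not called, and the difference was -1.21 (SE 0.24, adjusted p = 0.0182), or -0.55 after the GC correction (adjusted p = 0.0409). It was lost in 3 of 10 fits without 1 library (-1.43 to -0.96). SREBF1, which encodes the sterol response factor that drives this pathway, had a difference of -1.25 (adjusted p = 0.0162) from an uncalled siRNA response of -0.09 and an inhibitor response of 1.16, and was not called without DMSO replicate 2. Glycolysis and hypoxia genes gave 2 calls in each direction among 28 (7.14% each, against 2.73% higher and 4.57% lower of all tested genes). LDHA, lactate dehydrogenase A, fell in both arms, with responses of -0.42 and -0.99, with a difference of 0.56 (adjusted p = 0.0270), lost in 4 of 10 fits without 1 library (0.47 to 0.65) and after the GC correction. SLC2A3, a glucose transporter, had a difference of 1.04 (SE 0.12, adjusted p = 0.00169), beside control groups that themselves differed by 1.04 (adjusted p = 0.00211).

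Receptors and ligands of growth factor signalling moved in both directions. Of 27 receptor tyrosine kinases, 1 was called higher and 5 lower, and 3 were lower after the GC correction. The uncorrected calls were 3.7% and 18.5% of the list, against 2.73% and 4.57% of all tested genes. Without DMSO replicate 2 none was higher and 1 lower, and 3 were lower without NRAS siRNA 1 replicate 2, NRAS siRNA 2 replicate 2, nonspecific siRNA replicate 1 or either SCH772984 replicate. MET, the receptor of hepatocyte growth factor, stood at 8.57 and 11.6 CPM with nonspecific siRNA, 22.9 and 26.8 with siRNA 1, 26.3 and 26.1 with siRNA 2, 18.0 and 24.9 with DMSO and 25.9 and 28.5 with SCH772984. The nonspecific siRNA libraries were the only low ones, the controls differed by -1.09 (adjusted p = 0.0485), and the difference of 1.00 (adjusted p = 0.0378) was lost in 7 of 10 fits without 1 library (0.74 to 1.24) and after the GC correction (adjusted p = 0.0501). PDGFRB, a receptor of platelet-derived growth factor, had a difference of -0.94 (SE 0.17, adjusted p = 0.0135), not called without DMSO replicate 2. ROR1, a WNT receptor kinase, rose in both arms, by 1.18 and 2.07 (difference -0.89, adjusted p = 0.0366), and was lost in 8 of the 10 fits (-1.09 to -0.71). Of 21 ligands 3 were called higher (14.3%, against 2.73% of all tested genes) and none lower. TGFA, a ligand of the EGF receptor, fell in both arms, with responses of -1.06 and -3.11, with a difference of 2.05 (SE 0.27, adjusted p = 0.00282). ANGPT2, a ligand of TIE2, fell likewise, with responses of -1.26 and -3.67 (difference 2.41, SE 0.39, adjusted p = 0.00767), and both kept their calls without any 1 library.

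Genes of the WNT and of the TGF-beta and BMP pathways were called in both directions. Of 25 WNT genes, 8 were called lower and 1 higher (4 and 1 after the GC correction), with a median of -0.28. The uncorrected calls were 32.0% and 4.0% of the list, against 4.57% and 2.73% of all tested genes. The count of 8 was 2 without DMSO replicate 2 or SCH772984 replicate 1, 3 without nonspecific siRNA replicate 1 and 6 to 8 without any other library. WNT9A stood at 1.82 and 2.37 CPM with nonspecific siRNA, 1.65 and 1.87 with siRNA 1, 2.13 and 3.03 with siRNA 2, 1.45 and 1.59 with DMSO and 11.4 and 8.90 with SCH772984. The siRNA arm overlapped throughout, and the difference was -2.71 (SE 0.33, adjusted p = 0.00169). WNT2B, another ligand, had a difference of -2.36 (SE 0.33, adjusted p = 0.00356), and DKK2, an antagonist of WNT co-receptors, rose in both arms, by 2.12 and 4.60 (difference -2.48, adjusted p = 0.0235, lost in 4 of 10 fits without 1 library, -2.91 to -2.03). Of 29 TGF-beta and BMP genes, 8 were called lower and 2 higher (7 and 2 after the GC correction), with a median of -0.22. The uncorrected calls were 27.6% and 6.9% of that list. The count of 8 was 2 without DMSO replicate 1, 3 without DMSO replicate 2, SCH772984 replicate 1 or either nonspecific siRNA replicate, 5 without SCH772984 replicate 2 and 6 or 7 without any other library. The BMP antagonists NOG and GREM1 had differences of -2.24 (adjusted p = 0.0243) and -2.13 (adjusted p = 0.0323), lost in 4 (-2.75 to -1.88) and 6 (-2.53 to -1.57) of 10 fits without 1 library. TGFBI, a matrix protein induced by TGF-beta, fell in both arms, with responses of -0.38 and -2.20 (difference 1.83, SE 0.16, adjusted p = 0.000284), and BMP2, a BMP ligand, had a difference of 1.39 (adjusted p = 0.0209), lost in 4 of the 10 fits (1.09 to 1.75).

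Guidance cues and adhesion receptors included some of the better separated genes. Called lower were 17.9% of the semaphorin, plexin and ephrin list and 10.3% of the integrin and adhesion list, against 4.57% of all tested genes. Called higher were 3.57% and 3.45%, against 2.73%. After the GC correction, the semaphorin, plexin and ephrin list had 3 lower and 1 higher, with a median of -0.21. The integrin and adhesion list then had 2 lower and 2 higher. The counts that follow are uncorrected. Of 28 semaphorins, plexins and ephrins, 5 were called lower and 1 higher (median -0.41), and 3 lower without NRAS siRNA 1 replicate 2, nonspecific siRNA replicate 1 or any library of the inhibitor arm. SEMA3D stood at 4.01 and 4.67 CPM with nonspecific siRNA, 21.0 and 17.3 with siRNA 1, 20.5 and 10.8 with siRNA 2, 7.53 and 6.68 with DMSO and 175 and 230 with SCH772984. It rose without overlap in both arms, by 1.99 and 4.83, with a difference of -2.84 (SE 0.37, adjusted p = 0.00229). SEMA3B, by contrast, had an uncalled siRNA response of -0.12 and an inhibitor response of 2.43 (difference -2.55, SE 0.29, adjusted p = 0.00137). SEMA3C was called in opposite directions, 0.68 with the siRNAs and -0.60 with the inhibitor (difference 1.28, adjusted p = 0.0181), but its difference was not called without SCH772984 replicate 1 or without nonspecific siRNA replicate 1. NRP2, a co-receptor of class 3 semaphorins, had a difference of -1.50 (SE 0.14, adjusted p = 0.000379). Among 29 integrins and adhesion molecules, 1 was called higher and 3 lower, with none lower without DMSO replicate 1 or SCH772984 replicate 1. ITGA6, the integrin alpha 6 chain that binds laminin, fell in both arms, with responses of -0.76 and -1.69 (difference 0.93, SE 0.13, adjusted p = 0.00356), and ITGA11, a collagen-binding integrin chain, fell by 1.00 with the siRNAs and had an uncalled inhibitor response of 0.66 (difference -1.66, adjusted p = 0.0267, lost in 5 of 10 fits without 1 library, -1.85 to -1.49).

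Immune and death genes gave at most 3 calls in a list. That was 10.3% called lower in the interferon list and 7.69% in each direction in the BCL2 family. Among all tested genes 4.57% were lower and 2.73% higher. In edgeR's test NF-kB and cytokine genes gave none in 24, with 1 at an unadjusted p under 0.05, and DESeq2 called 1 and limma-voom 0. Of 29 interferon genes 3 were called lower (1 without either DMSO replicate, NRAS siRNA 1 replicate 2 or NRAS siRNA 2 replicate 1). IFI44L stood at 3.97 and 3.18 CPM with nonspecific siRNA, 9.57 and 6.24 with siRNA 1, 11.6 and 7.97 with siRNA 2, 2.51 and 1.48 with DMSO and 46.1 and 32.7 with SCH772984. It rose without overlap in both arms, by 1.30 and 4.32, and the difference was -3.01 (SE 0.42, adjusted p = 0.00367). ISG15, a ubiquitin-like interferon product, fell by 0.91 with the siRNAs and had an uncalled inhibitor response of 0.16 (difference -1.07, adjusted p = 0.0342), and was lost in 6 of 10 fits without 1 library (-1.31 to -0.78) and after the GC correction. Among 13 BCL2 family genes, PMAIP1, the death protein NOXA, was called higher (1.09, adjusted p = 0.0386) and BOK, another death protein of the family, lower (-1.13, adjusted p = 0.00117). PMAIP1 was lost in 7 of 10 fits without 1 library (0.88 to 1.26), BOK kept its call in all of them, and neither was called after the GC correction.

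The plot by gene list sets these groups side by side. The next lists gave few calls in number, which need not be a low share. Called lower were 16.7% of NOTCH, 15.8% of YAP and TEAD, 13.3% of heat shock, 11.8% of MHC class I and 10.0% of p53 genes. The share was 6.25% for lysosome genes, 4.0% for amino acid supply and 0.0% for chaperones, against 4.57% of all tested genes. Called higher were at most 8.0% (amino acid supply), against 2.73%. After the GC correction, lower calls numbered 1 for NOTCH, 2 for heat shock and 1 for p53 genes. They numbered 0 for YAP and TEAD targets and for MHC class I genes. The median of the NOTCH list went from -0.54 to -0.22 under it. The counts that follow are uncorrected. MHC class I genes (2 lower of 17), NOTCH genes (3 lower of 18), YAP and TEAD targets (1 higher and 3 lower of 19), p53 targets (1 higher and 2 lower of 20), genes of amino acid supply (2 higher and 1 lower of 25), endoplasmic reticulum chaperones (1 higher of 18), heat shock proteins (1 higher and 2 lower of 15) and lysosome genes (1 higher and 2 lower of 32) gave few calls, and without SCH772984 replicate 1 the MHC class I, NOTCH, p53, amino acid and chaperone lists gave none. Of these, HSPB1, a small heat shock protein, had a difference of -1.15 (SE 0.16, adjusted p = 0.00367), WWTR1, which encodes the YAP relative TAZ, 0.80 (SE 0.12, adjusted p = 0.00668) and AMOTL2, a YAP target, -0.95 (adjusted p = 0.0115), the last not called after the GC correction (-0.32). NOTCH3, a NOTCH receptor, had a difference of -0.78 (adjusted p = 0.0188), lost in 3 of 10 fits without 1 library (-0.92 to -0.61), and ASNS, asparagine synthetase, 0.79 (adjusted p = 0.00956), not called without SCH772984 replicate 1.

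**Figure D5:**
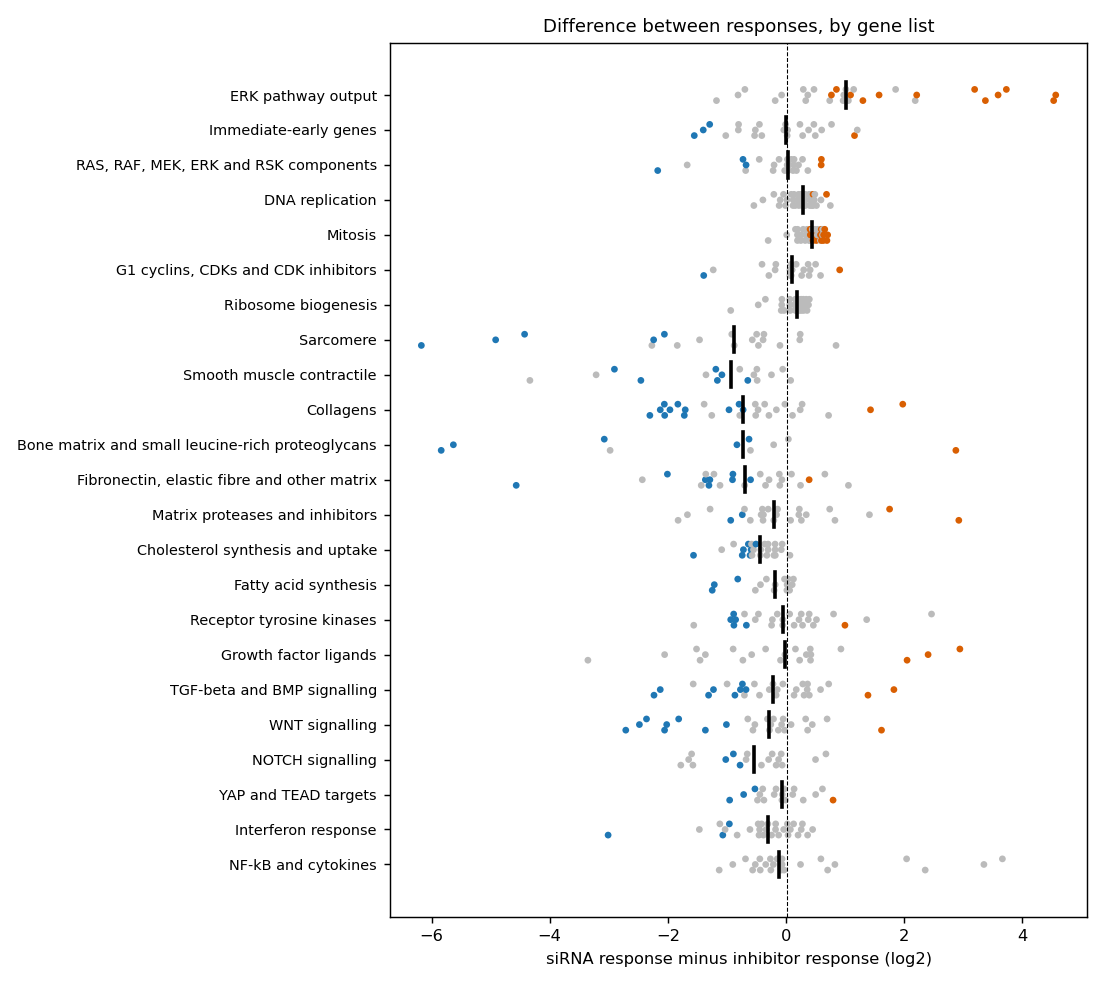
Difference between the responses (siRNA minus inhibitor, log2), 1 point per tested gene, for 23 gene lists, in orange where called higher, in blue where called lower and in grey where not called. Black bars mark the list medians and the dashed line the median of all tested genes, 0.02. The ERK output list (1.01) and mitosis (0.44) lie right of it, and smooth muscle (-0.93), sarcomere (-0.88) and collagens (-0.73) left. After the GC correction these medians were 1.11, 0.36, -0.75, -0.51 and -0.48 in the same order. In the sarcomere and bone matrix lists, members that passed the filter through the inhibitor libraries alone had to differ.

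Of the 116 genes called in the siRNA arm alone, 77 had a negative difference, and the median GC content of these was 63.1%. Among the 39 with a positive difference, the controls were called with the opposite sign in 11. After NRAS, the largest differences in this class among genes with a group mean of at least 5 CPM were those of METRN, a secreted factor first described in neurons and glia, at -2.16 (SE 0.46, adjusted p = 0.0243) and LIME1, a T cell adaptor, at -2.07 (SE 0.38, adjusted p = 0.0135). METRN stood at 12.3 and 7.47 CPM with nonspecific siRNA, 3.98 and 2.52 with siRNA 1, 3.93 and 5.59 with siRNA 2, 10.2 and 8.27 with DMSO and 21.7 and 11.2 with SCH772984. All 4 knockdown libraries were below all others, and both inhibitor libraries were above both DMSO libraries, though the inhibitor response of 0.84 was not called. The call of METRN was lost in 4 of 10 fits without 1 library (-2.56 to -1.61) and that of LIME1 without DMSO replicate 2 and without SCH772984 replicate 1, and LIME1 was not called after the GC correction (-1.04, adjusted p = 0.0536).

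The 36 genes called in opposite directions were few. The median siRNA and inhibitor responses were 0.42 and -0.39 for the 17 with a positive and -0.55 and 0.52 for the 19 with a negative difference. ADAP1, which binds phosphoinositides and acts on ARF GTPases, stood at 5.96 and 4.13 CPM with nonspecific siRNA, 2.92 and 2.78 with siRNA 1, 3.27 and 3.10 with siRNA 2, 3.08 and 3.38 with DMSO and 7.46 and 7.71 with SCH772984, with a difference of -1.97 (SE 0.26, adjusted p = 0.00279). The knockdown libraries overlapped the DMSO libraries and lay below nonspecific siRNA, and the inhibitor libraries lay above all. After the GC correction all 17 positive genes kept a called difference, 11 of them in the same class, whereas 13 of the 19 negative ones did and 4 stayed in the class. Of the 40 genes with a called difference and neither response called, 9 were still called after it. SPHK1, sphingosine kinase 1, the largest of these among genes with a group mean of at least 5 CPM, at -1.45 (adjusted p = 0.0382), was not, and it was lost in 6 of 10 fits without 1 library (-1.84 to -1.15). Without any 1 library 1 to 56 genes were called in opposite directions.

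CDCA4, the gene with the greater response in the siRNA arm, differed between the siRNAs. It stood at 125 and 115 CPM with nonspecific siRNA, 90.2 and 99.2 with siRNA 1, 30.5 and 35.4 with siRNA 2, 118 and 128 with DMSO and 89.3 and 80.1 with SCH772984. Only siRNA 2 took it below the inhibitor libraries: the difference was 0.20 (adjusted p = 0.485) with siRNA 1 alone and -1.33 (adjusted p = 0.00186) with siRNA 2 alone, and these differed (adjusted p = 0.000444). The difference over both siRNAs, -0.56 (adjusted p = 0.0434), was lost in 9 of 10 fits without 1 library (-0.64 to -0.48). CDCA4, a nuclear protein tied to the cell cycle, was named after its values had been seen, as the only member of its class.

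Some genes responded alike in both arms. A gene was counted as like when both responses were called in the same direction and the 95% interval of the difference lay between -0.5 and 0.5. This held for 153 genes (1.04%), 43 higher and 110 lower in both arms, and 93 of them met it after the GC correction too. SNTB1, a syntrophin of the dystrophin complex, stood at 85.7 and 84.5 CPM with nonspecific siRNA, 27.3 and 32.4 with siRNA 1, 37.7 and 43.3 with siRNA 2, 73.1 and 61.8 with DMSO and 28.3 and 31.4 with SCH772984. It fell without overlap in both arms, with responses of -1.29 and -1.18, and the difference was -0.12 (95% interval -0.49 to 0.25). IER2, an immediate-early gene, fell by 1.00 with the siRNAs and had a called inhibitor response of -1.02 (interval -0.41 to 0.45), and LOXL3, a lysyl oxidase, had responses of -0.72 and -0.85 (interval -0.19 to 0.46). FLRT2, a cell surface protein that binds FGF receptors and UNC5, rose by 0.71 and 0.75 (interval -0.44 to 0.36). BCL2L11, the death protein BIM that ERK marks for degradation, rose by 0.65 in both arms (interval -0.41 to 0.42). Of the 10 fits that each left out 1 library, IER2 met the rule in 2, SNTB1, FLRT2 and BCL2L11 in 4 each and LOXL3 in 6.

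These intervals widened when libraries were left out. Without nonspecific siRNA replicate 1 only 5 genes met the rule. The number was 36 without NRAS siRNA 1 replicate 1 and without SCH772984 replicate 1, 38 and 68 without DMSO replicates 2 and 1, 44 without SCH772984 replicate 2, 48 without NRAS siRNA 2 replicate 1, 59 without nonspecific siRNA replicate 2, and 102 or 173 without the others. VCAM1, an adhesion molecule for leukocyte integrins, rose in both arms, by 2.19 and 2.70, at levels from 1.44 CPM with DMSO to 33.2 with siRNA 2. Its difference of -0.51 was not called (adjusted p = 0.600), but the interval of -1.67 to 0.65 is too wide to call the responses alike.

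Other genes with large differences came from several families. PDE11A, a phosphodiesterase of cyclic AMP and GMP, stood at 0.579 and 0.727 CPM with nonspecific siRNA, 1.94 and 1.12 with siRNA 1, 2.89 and 1.71 with siRNA 2, 0.836 and 0.569 with DMSO and 53.2 and 61.9 with SCH772984. It rose without overlap in both arms, by 1.51 and 6.36, and the difference was -4.85 (SE 0.54, adjusted p = 0.00117). HSPB7, the other lower member of the heat shock list, rose in both arms too, by 1.46 and 4.78 (difference -3.32, SE 0.38, adjusted p = 0.00143). DRD2, the dopamine D2 receptor, MSC, the bHLH repressor musculin, and PLEKHA7, a junction protein, had differences of -4.07, -3.34 and -3.13 with siRNA responses that were not called. PCSK1, a prohormone convertase, fell in both arms, with responses of -1.17 and -4.71 (difference 3.54, SE 0.32, adjusted p = 0.000334), and DCC, the netrin receptor, had an uncalled siRNA response of -0.24 and an inhibitor response of -3.40 (difference 3.16, SE 0.35, adjusted p = 0.00117). MYEOV, a gene amplified in myeloma, had 219, 79, 90 and 307 counts over both libraries with nonspecific siRNA, siRNA 1, siRNA 2 and DMSO and 5 with SCH772984.

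The difference rests on the controls as well as on the treated groups. Nonspecific siRNA and DMSO differed for 56 genes (0.379%). Compared directly, the treated groups differed for 4158 genes (28.2%), and of the 1078 genes with a called difference 1002 were called in the same direction there, 75 were not called and 1 was called in the opposite direction. For most of these genes the cells thus also differed in level after treatment, and for 75, such as MET, ADAM19 and ASNS, that was not shown. For ASNS the treated groups differed by 0.25 (edgeR adjusted p = 0.0608). Its controls differed by -0.54 (edgeR adjusted p = 0.0595).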

How the data were processed

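Bulk mRNA of 10 libraries (5 groups of 2) was analysed from the deposited table of read counts per gene. Per the submitters' processing notes, the tools were HTSeq, SAMtools, TopHat2 and bcl2fastq, of unstated version, and the builds hg19 and GRCh37. Whether counting used strand is not given. The 5 category lines of the counting tool, which held 38.3% to 39.4% of all counted reads of a library, were left out. Libraries held 23224063 to 30768970 counts. Genes were filtered with filterByExpr (minimum count 10), scaled by TMM and fitted with edgeR 4.0.16 (R 4.3.3), quasi-likelihood test, all libraries in 1 fit with 5 residual degrees of freedom. Benjamini-Hochberg adjustment ran over the 14761 tested genes with a threshold of 0.05. CPM of single genes uses TMM-scaled library sizes, whereas the summed marker levels and the floor in CPM use plain library totals. Alternatives were DESeq2 1.42.0, limma 3.58.1 with voom, RLE and upper-quartile scaling, no filter, a replicate block, each siRNA alone and leaving out each library. The GC correction, chosen after seeing the data, took each library's lowess trend (span 0.3) with transcript GC content out; 731 tested genes had no matched transcript. Named genes were a set of pathway genes, the 10 highest and 10 lowest differences with a group mean of at least 5 CPM, the 4 largest of each class, up to 4 called genes of each list and 6 genes with like responses. Not every gene that met this rule is described, and SPRY1, PHLDA1, MAFF, HBEGF, RPS6KA3 and CDCA4 were added after their values were seen. Members and lists were chosen with earlier results of these data known. The fit was tested on simulated counts. Promoters came from RefSeq (GRCh38.p14) and were matched by symbol.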

Additional observations from a re-analysis of the deposited data

Results flagged for a closer look

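In 2 of the genes named above the difference between the responses depended on which NRAS siRNA was used. For CDCA4 the difference was 0.20 with siRNA 1 and -1.33 with siRNA 2, and the siRNAs differed by 1.52 on the log2 scale (edgeR adjusted p = 0.000444). For KLF2 it was -2.24 with siRNA 1 and -0.86 with siRNA 2, a difference between siRNAs of -1.38 (edgeR adjusted p = 0.0181). Both siRNA groups hold 2 libraries, and each of these 4 libraries kept the order of the groups: CDCA4 was higher and KLF2 lower in both siRNA 1 libraries than in both siRNA 2 libraries. No group had enough libraries for a check of single libraries that stand apart.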

How the results depend on the processing

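With RLE or upper-quartile scaling, no filter, limma-voom or DESeq2, the numbers of called differences stayed within 1.5 times those given, and 970 to 1045 of the 1078 genes remained called in the same direction. The share of higher calls, 37.4%, was 31.5% with upper-quartile scaling and 47.2% after the GC correction. The groups share replicate numbers, and the deviations of same-numbered libraries correlated at 0.179 to 0.448 within the arms and 0.074 to 0.348 between them. All values were positive, but not every value was over 0.1 (nonspecific siRNA and DMSO 0.074, siRNA 2 and SCH772984 0.1). The main fit did not take the numbers as pairs, and whether a replicate effect was shared by the groups was not tested. With a replicate block the difference was called for 2379 genes (1019 higher, 1360 lower), the siRNA response for 2846, and like responses for 578, and of the 29 ERK output genes 18 were higher and 2 lower. The classes then held 1425 (inhibitor arm only), 427 (both arms, inhibitor greater), 14 (siRNA greater), 298 (siRNA arm only), 147 (opposite) and 68 (neither). With the GC correction and the replicate block these were 2393 (1239 higher, 51.8%, and 1154 lower), 3909, 1277, 1275, 648, 24, 259 and 148, and the inhibitor response was called for 6528. With the GC correction alone, like responses numbered 316, the class with the greater siRNA response 3 and the class called in neither arm 10. By DESeq2 the classes held 211 (both arms, inhibitor greater), 3 (siRNA greater), 190 (siRNA arm only), 74 (opposite) and 88 (neither), and without the filter 2 had the greater siRNA response. Leaving out 1 library gave 343 to 915 differences (121 to 294 higher, 187 to 623 lower), 131 to 1491 siRNA responses, 1875 to 4392 inhibitor responses and 5 to 173 like responses. The classes then held 220 to 644, 29 to 116, 0 to 2, 22 to 160, 1 to 56 and 5 to 58 genes in the order above. The total of 1078 was 343 without SCH772984 replicate 1, 359 without DMSO replicate 2, 464 without DMSO replicate 1, 480 without nonspecific siRNA replicate 1, 594 without NRAS siRNA 1 replicate 2 and 660 without NRAS siRNA 2 replicate 1. Fewer libraries entered these fits, and a group with 1 library was assumed to vary like the others. The difference of CDCA4 had the opposite sign, 0.20, with siRNA 1 alone. With 2 libraries per group, precision was limited by their number, and genes at 3 counts or fewer by depth.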

Other observations

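Neuronal genes, a list kept as markers of another cell type, differed between the responses in both directions, with 3 of 11 tested genes called higher and 3 lower (median 0.02). This was 27.3% each, against 2.73% higher and 4.57% lower of all tested genes. VGF, a secreted neuropeptide precursor, stood at 29.9 and 24.3 CPM (counts scaled to library size) with nonspecific siRNA, 7.53 and 7.86 with siRNA 1, 7.33 and 12.0 with siRNA 2, 31.6 and 27.9 with DMSO and 2.85 and 2.25 with SCH772984. It fell in both arms without overlap, with responses of -1.65 and -3.54 on the log2 scale, and the difference was 1.89 (SE 0.31, edgeR adjusted p = 0.00794). SCG2, secretogranin II of secretory granules, went the other way, with an uncalled siRNA response of 0.53, an inhibitor response of 1.96 and a difference of -1.43 (SE 0.23, adjusted p = 0.0071). Both kept their calls without any 1 library and after the GC correction. STMN2, a tubulin-binding protein of neurites, had an uncalled siRNA response of 0.45, an inhibitor response of -1.18 and a difference of 1.64 (SE 0.29, adjusted p = 0.0125), and was not called without SCH772984 replicate 1. The summed level of 6 neuronal markers, in which STMN2 had the largest part, was 62.9 to 68.7 CPM with SCH772984 and 98.8 to 211 CPM in the other groups. Its part in other differences was not tested.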
